A study of Mus musculus with 12 samples.

Results

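Nuclear receptors and the coregulators that bind them were followed in the mouse striatum, the forebrain region that receives the densest dopamine input. The group comprised 32 genes listed by name: steroid and estrogen-related receptors, retinoic acid and retinoid X receptors, receptors for fatty acids, oxysterols and vitamin D, ROR and orphan receptors, p160 coactivators and a corepressor. A gene was taken as measured where an array probe set carried its symbol and no other. By that rule 30 of the 32 genes were measured, each by 1 probe set, among 19935 genes in all. No probe set was matched to Nr1h2 or Ncor1, whose expression is not analysed here. The rule uses names alone, but the names were listed with earlier results of these data known.

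RNA came from male Swiss-Albino mice, 2 months old, with equal amounts from 4 animals combined into a pool and each pool put on its own Affymetrix Mouse Gene 1.0 ST array. Butyrate-morphine mice (3 arrays) received, in each of 6 induction trials, sodium butyrate at 300 mg/kg, an inhibitor of histone deacetylases, and then morphine at 20 mg/kg. Morphine mice (3 arrays) received saline and then the same dose of morphine, and saline mice (6 arrays) received vehicle for both injections. A challenge injection followed 7 days after the last trial, and tissue was taken 1 h later. In both morphine groups the challenge was morphine at 20 mg/kg. For the saline group the labels conflict, since the source names give a saline challenge while the treatment protocol describes a morphine injection for every mouse, so a difference from saline either includes the acute injection or does not. All values are from whole tissue. Separate cohorts behind the pools are not named in the labels, and the p-values cover pool-to-pool variation alone.

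Nuclear receptors are transcription factors that bind DNA directly, many of them switched on by a small lipid-soluble ligand that enters the cell. Retinoic acid receptors pair with retinoid X receptors on DNA, and retinoid X receptors are also the partners of the PPAR, LXR and vitamin D receptors. Without ligand such pairs hold corepressors, and with ligand they recruit p160 coactivators, which bring in histone acetyltransferases. Rarb and Rxrg are known for their strong expression in striatal projection neurons, and mice that lack both have impaired dopamine signalling. In the adult brain Nr2e1, also called Tlx, is known as a repressor that keeps neural stem cells of the subventricular zone, which lines the ventricle beside the striatum, in a dividing state.

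The deposited values are differences from a baseline, read here as log2 although the base is not stated, so they give no level for a gene. Saline arrays 1 and 2, 3 and 4, and 5 and 6 mirror each other, with sums within 2e-06 of 0 in every row. Every saline mean is therefore 0, and only 3 of the 6 saline values of a gene are free to vary. Centring on the own pair also narrows the saline ranges given below, which favours a lack of overlap. Over all genes the SD was 0.050 to 0.083 on saline arrays and 0.110 to 0.148 on the others, which also hold any treatment effect. Ranges and overlap are therefore description only. For a single group against saline, the share of all genes without overlap is not given. The fit counts them so, with 7 residual degrees of freedom in place of 9. A coarse class of the stored level, on the log scale, survives in the rounding of the values. The upper class holds rows with the rounding step of values between 8 and 16 on every array that could be read. The lower class holds rows with the finer step of 4 to 8 on at least 1 array or in the baseline. Other arrays of such a row may have been above 8. Of the 30 genes, 8 were in the upper class, which is 26.7%, against 24.2% of all genes with a single probe set. They were Esrrg, Rarb, Rxrg, Rora, Rorb, Nr2c2, Ncoa1 and Ncoa2. Of the striatal projection neuron markers 11 of 12 were in the upper class, against 0 of 11 choroid plexus markers, so the defining markers of the labelled tissue were in the upper class. For the choroid plexus the lower class does not give a level of 4 to 8 on every array. Its marker Ttr ran from -0.72 on a saline array to 3.80 on a morphine array, too wide for that range.

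**Figure D1:**
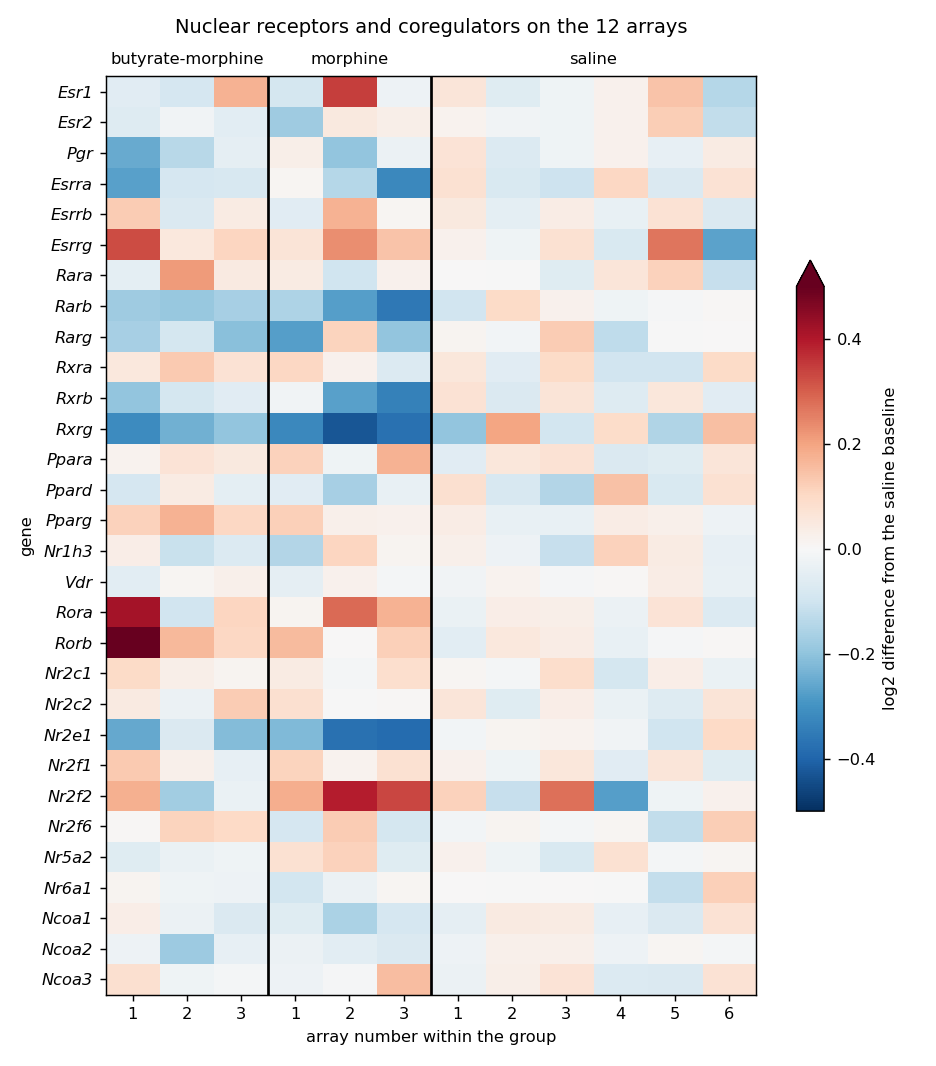
Log2 difference from the saline baseline (colour) of the 30 measured genes (rows) on each of the 12 arrays (columns, by group). Rarb and Rxrg are below 0 on all 6 butyrate-morphine and morphine arrays and so is Nr2e1, while the mirrored saline pairs can be seen as neighbouring columns of opposite colour.

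The first question was whether any of these genes differed from saline in mice given morphine, with or without butyrate. Nr2e1 and Rarb were lower than in saline over the mean of both morphine groups, at 0.838 and 0.858 of the saline level, and no other member passed the threshold of 0.05 on the adjusted p of limma. That is 2 of 30 genes called, 6.67%, against 1.81% of all genes called in this comparison and 0.667% called lower. With eBayes trend and robust the calls of Nr2e1 and Rarb were lost (adjusted p = 0.0943 and 0.108). At an unadjusted p under 0.05 there were 7 of 30, 23.3%, against a background of 13.9%. Lower were 5 of them, Esrra, Rarb, Rxrb, Rxrg and Nr2e1 (16.7%, against 6.34% of all genes), and higher were Pparg and Rorb (6.67%, against 7.6%). Members did not lean to a side as a group: 16 of 30 were above 0, and the median difference was 0.01, against 0.00 over all genes.

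In morphine against saline 1 of 30 genes passed, Nr2e1, which was lower; the background was 0.757% of all genes, and 0.261% for genes called lower. In butyrate-morphine against saline limma called 0 of 30 genes, against a background of 0.843%. At an unadjusted p under 0.05 there were 6 of 30 in that comparison, 20% against a background of 12.1%, and 5 of 30 in morphine against saline, 16.7% against 11.3%. These comparisons share the saline arrays, so their values are given side by side and not as independent support.

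**Figure D2:**
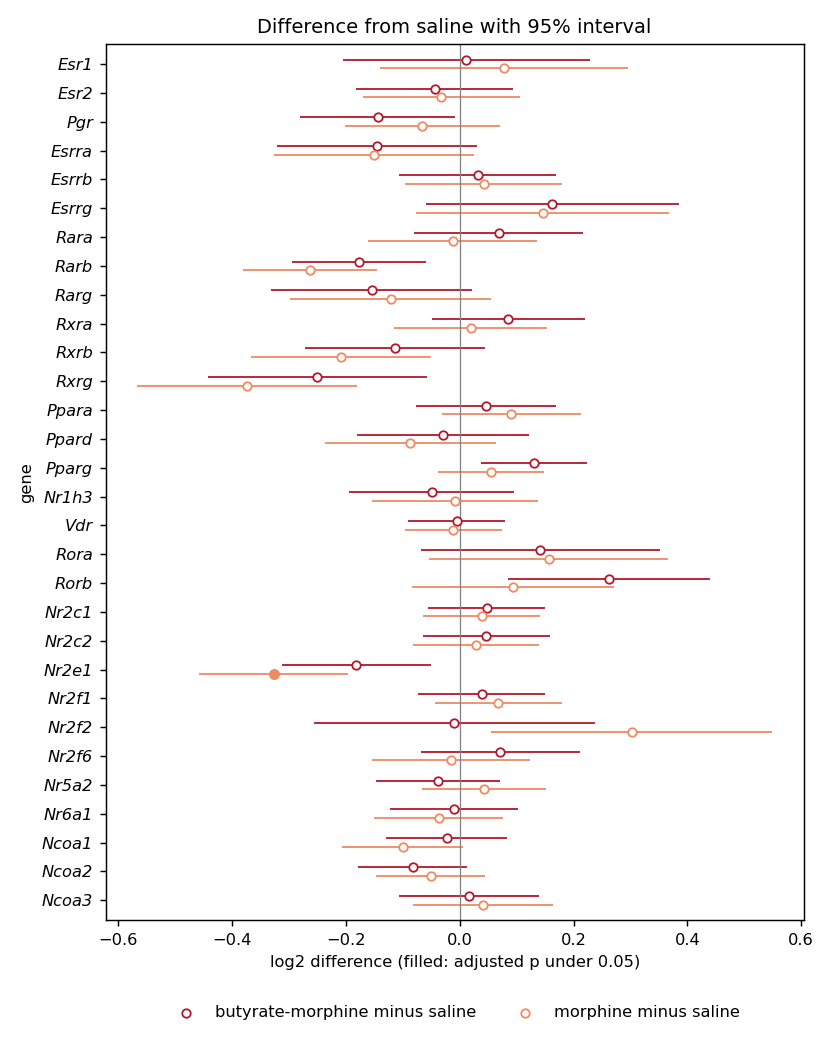
Log2 difference from saline (horizontal axis) of each measured gene with its 95% interval from the limma fit, for butyrate-morphine (dark red) and morphine (orange). The filled point is Nr2e1 in morphine mice, at -0.33, the only value here past an adjusted p of 0.05.

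Among the retinoic acid receptors, Rarb encodes the receptor subtype known for its expression in striatal neurons, and its promoter is a classical target of retinoic acid through a direct repeat that binds the receptor pair. The RefSeq promoter window of Rarb is shown because that repeat can be read in it. The window covers 250 bases before to 50 after the start (GRCm38.p6, minus strand, chr14:16575427-16575726), and capitals mark the match to the repeat.

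Rarb promoter: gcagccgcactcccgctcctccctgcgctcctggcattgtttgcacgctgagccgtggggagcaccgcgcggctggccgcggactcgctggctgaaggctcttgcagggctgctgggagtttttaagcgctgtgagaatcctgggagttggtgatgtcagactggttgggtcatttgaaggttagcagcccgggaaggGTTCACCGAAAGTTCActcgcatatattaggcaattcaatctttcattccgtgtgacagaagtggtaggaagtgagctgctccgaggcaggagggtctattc

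The match GTTCACCGAAAGTTCA began 52 bases upstream of the annotated start. The pattern searched on both strands was the site GNTCA, where N is any base, repeated in the same direction with 6 bases between. It was in 0.861% of 32851 promoter windows and in 1 of the 50 windows found for the listed genes (30 genes had at least 1). Those genes include Nr1h2 and Ncor1, while no window was found for Ncoa2 and Ncoa3. The same repeat with 2 or 3 bases between was in 1.26% and 1.12% of all windows and in 0 of the 50. A match is a reading of letters only and says nothing of occupancy in this tissue.

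Rarb lay at -0.18, -0.19 and -0.16 on the butyrate-morphine arrays and at -0.16, -0.28 and -0.36 on the morphine arrays. Saline arrays ran from -0.10 to 0.10 with a median of 0. All 6 arrays of the morphine groups were below the lowest saline array, which 1.34% of all genes also showed against the same narrowed saline ranges. The mean was -0.18 ± 0.01 in butyrate-morphine mice (SD, n = 3) and -0.26 ± 0.10 in morphine mice (SD, n = 3). In the limma fit the mean of both groups was -0.22 with a standard error of 0.04 and an adjusted p of 0.0295. Neither group alone passed, with adjusted p = 0.193 for butyrate-morphine and 0.0515 for morphine. The call over both groups was lost without any of the butyrate-morphine arrays, without morphine array 3 and without any of the saline pairs, with adjusted p-values up to 0.0923.

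Rarg, the subtype best known from skin, had -0.17, -0.09 and -0.21 on the butyrate-morphine arrays and -0.28, 0.11 and -0.20 on the morphine arrays. Its saline arrays ran from -0.13 to 0.13 with a median of 0, overlapping both groups, and the mean of both groups was -0.14 (adjusted p = 0.382). Rara, the most widely expressed subtype, had means of 0.07 in butyrate-morphine mice and -0.01 in morphine mice, and did not pass.

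Of the retinoid X receptors, the common partners, Rxrg is the subtype known from the striatum. It was at -0.31, -0.24 and -0.20 on the butyrate-morphine arrays and at -0.32, -0.43 and -0.37 on the morphine arrays. Saline arrays ran from -0.20 to 0.20 with a median of 0, the wide spread being part of the measurement. All 6 arrays of the morphine groups were below the lowest saline array, in butyrate-morphine only by a small margin. The mean of both groups was -0.31, or 0.805 of the saline level, with an adjusted p of 0.0548 in limma, so Rxrg missed the threshold.

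Rxrb, a broadly expressed subtype, had -0.20, -0.09 and -0.06 on the butyrate-morphine arrays and -0.02, -0.27 and -0.34 on the morphine arrays. Its saline arrays ran from -0.07 to 0.07 with a median of 0, and 1 array of each morphine group lay within that range. The mean of both groups was -0.16 (adjusted p = 0.226). The morphine arrays differ widely: without morphine array 1 the morphine value was -0.31 and passed, with an adjusted p of 0.0412. Rxra, the main subtype of liver and skin, had means of 0.09 in butyrate-morphine mice and 0.02 in morphine mice and did not pass.

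**Figure D3:**
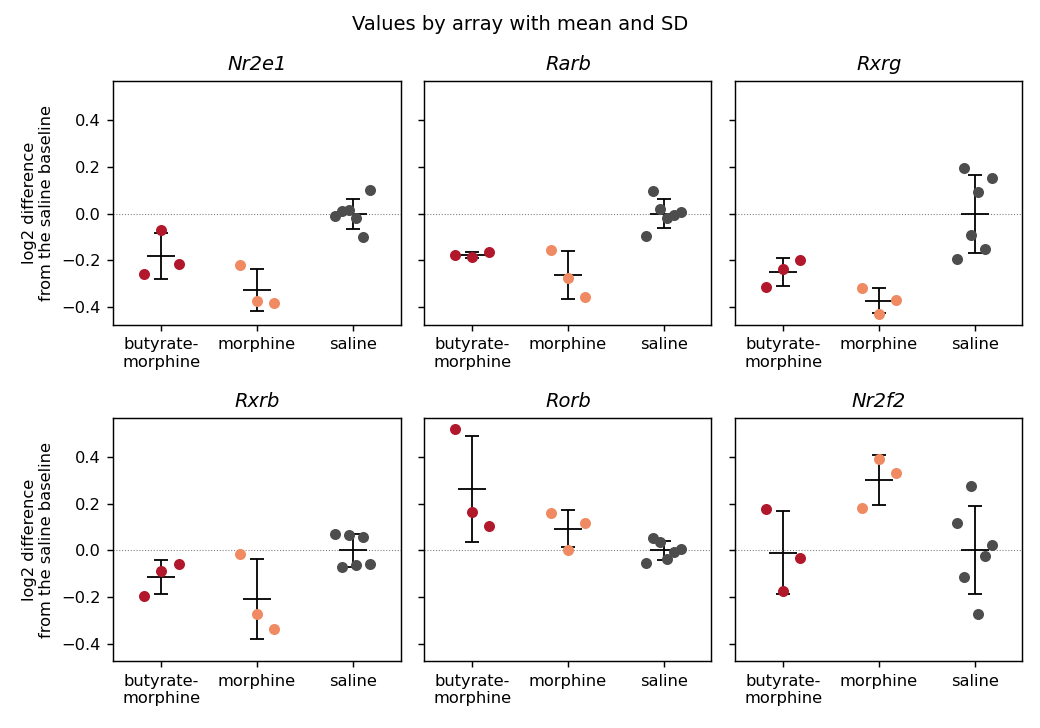
Log2 difference from the saline baseline (vertical axis) of 6 genes on each array, with the mean (long bar) and SD (short bars) of butyrate-morphine (n = 3), morphine (n = 3) and saline (n = 6, holding 3 independent values). All butyrate-morphine and morphine points of Rarb and Rxrg lie below the saline points, while those of Rorb and Nr2f2 spread widely.

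Genes of retinoid transport and metabolism, which handle the ligands of these receptors, formed another list. Of 16 listed genes 15 were measured, and 1 passed over the mean of both groups: Rbp4, which encodes the carrier of retinol in plasma. Rbp4 lay between -0.25 and -0.12 on the butyrate-morphine arrays and between -0.32 and -0.21 on the morphine arrays, against -0.05 to 0.05 on saline arrays, with no overlap. Its mean difference was -0.23, or 0.854 of the saline level (adjusted p = 0.0097), and in morphine alone -0.27 (adjusted p = 0.0178). In butyrate-morphine alone it was -0.18 (adjusted p = 0.115). The call over both groups was lost without saline arrays 1 and 2, and that in morphine also without morphine array 2 or 3. Of all genes 1.81% passed over both groups. The list's median was -0.05, against 0.00 for all genes. Over both groups 5 of 15 had an unadjusted p under 0.05, against 13.9% of all genes. Besides Rbp4 these were Dhrs3 at -0.22 and Crabp1 at -0.19, and Rdh10 at 0.15 and Rdh11 at 0.10, none of which passed.

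Among the orphan receptors of the NR2 class, Nr2e1 gave the lowest adjusted p among the 30 measured members. Its RefSeq promoter window is shown as the second of the genes that passed (GRCm38.p6, minus strand, chr10:42583541-42583840). Capitals mark TGACGTCA, the cyclic AMP response element, a pattern that was chosen after the window had been read.

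Nr2e1 promoter: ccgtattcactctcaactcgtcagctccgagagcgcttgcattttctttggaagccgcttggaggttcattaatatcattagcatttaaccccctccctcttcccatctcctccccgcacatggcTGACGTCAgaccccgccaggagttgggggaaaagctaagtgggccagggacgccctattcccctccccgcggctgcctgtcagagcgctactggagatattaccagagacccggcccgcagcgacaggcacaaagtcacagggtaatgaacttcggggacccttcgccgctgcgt

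The element began 125 bases upstream of the annotated start. It reads the same on both strands, and 1.79% of all promoter windows held it, as did 2 of the 50 windows of the listed genes, those of Nr2e1 and Nr6a1. None of the repeats searched for Rarb was in the Nr2e1 window, and neither window of Rxrg held any of these patterns.

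Nr2e1 was at -0.26, -0.07 and -0.22 on the butyrate-morphine arrays and at -0.22, -0.37 and -0.38 on the morphine arrays. Saline arrays ran from -0.10 to 0.10 with a median of 0. All 3 morphine arrays were below the lowest saline array, while butyrate-morphine array 2 lay within the saline range. The mean was -0.18 ± 0.10 in butyrate-morphine mice (SD, n = 3; adjusted p = 0.232) and -0.33 ± 0.09 in morphine mice (SD, n = 3). In limma the morphine group was at 0.797 of the saline level with an adjusted p of 0.0289, and the mean of both groups was -0.25 with an adjusted p of 0.025. Neither call was independent of single arrays. The morphine call was lost without morphine array 2, without morphine array 3, without saline arrays 1 and 2, and without saline arrays 3 and 4; over the 9 fits that left out an array or saline pair its adjusted p ran from 0.0192 to 0.167. The call over both groups was lost without butyrate-morphine array 1 or 3, morphine array 3, or the same saline pairs, with adjusted p-values up to 0.0998.

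Nr2f2, also called COUP-TFII, is known from interneurons that migrate from the caudal eminence and from vascular and thalamic cells. It is described although it is outside the rule for named genes, after its values were seen, since it had the only unadjusted p under 0.05 among the members between the morphine groups. It lay at 0.18, -0.17 and -0.03 on the butyrate-morphine arrays, at 0.18, 0.39 and 0.33 on the morphine arrays, and between -0.27 and 0.27 on saline arrays with a median of 0. The saline spread covers all the butyrate-morphine values and the lowest morphine value. Nr2f2 was 0.30 above saline in the morphine group (adjusted p = 0.304). The other 4 receptors of the class, Nr2c1, Nr2c2, Nr2f1 and Nr2f6, had means from 0.04 to 0.07 in butyrate-morphine mice and from -0.02 to 0.07 in morphine mice, and none passed.

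The ROR receptors bind DNA as monomers, and Rora is a component of the circadian clock. Rorb, known from sensory cortex, thalamus and retina, lay at 0.52, 0.16 and 0.10 on the butyrate-morphine arrays and at 0.16, 0.00 and 0.12 on the morphine arrays, with saline between -0.05 and 0.05 and a median of 0. All butyrate-morphine arrays were above the saline range, and 1 morphine array lay inside it. This separation too stands without a share of all genes. The butyrate-morphine mean of 0.26 (adjusted p = 0.203) rests on array 1, without which it was 0.13. Rora had 0.42, -0.10 and 0.11 on the butyrate-morphine arrays and 0.01, 0.28 and 0.17 on the morphine arrays, with saline between -0.07 and 0.07 and a median of 0. Its arrays lay on both sides of the saline range, and the mean of both groups was 0.15 (adjusted p = 0.435).

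Array by array, markers of tissue next to the striatum moved as well. The mean of 10 markers of thalamus and septum was 0.37, -0.05 and 0.15 on the butyrate-morphine arrays and 0.05, 0.41 and 0.50 on the morphine arrays, against -0.03 to 0.03 on saline arrays. Of these markers 2 passed as higher over the mean of both groups, Trpc4 and Calb2, each in 2 of the 9 fits with an array or saline pair left out. The list was not uniform, with 6 of 10 above 0 and 4 below 0 over both groups. The arrays with a high mean of these markers include those high in Rora and Nr2f2. Rorb differed, at 0.52 on butyrate-morphine array 1 but 0.00 and 0.12 on morphine arrays 2 and 3, where the marker mean was highest. The part of adjoining tissue in the values of these genes was not tested. Of the 9 markers with a single probe set 1 was in the upper stored class. Beyond that class levels are not in the files, so it cannot be read which of these markers are at 0.

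The estrogen-related receptors are orphan receptors that drive genes of mitochondrial energy metabolism. Esrra had -0.27, -0.08 and -0.08 on the butyrate-morphine arrays and 0.01, -0.14 and -0.32 on the morphine arrays, and saline arrays from -0.10 to 0.10 with a median of 0. The groups overlapped, and the mean of both was -0.15 (adjusted p = 0.335). Esrrg had 0.33, 0.05 and 0.11 on the butyrate-morphine arrays and 0.06, 0.23 and 0.14 on the morphine arrays, within or near saline values from -0.27 to 0.27 with a median of 0. Its mean of both groups was 0.15 (adjusted p = 0.448), and Esrrb was at 0.03 in butyrate-morphine mice and 0.04 in morphine mice. Of 14 listed targets, mostly genes of the citric acid cycle and respiratory chain, 13 were measured and limma called 0 over both groups. At an unadjusted p under 0.05 there was 1, against 13.9% of all genes. The lowest p-values in that list belonged to Idh3a, a subunit of isocitrate dehydrogenase, at 0.07, and Mfn2, a mitochondrial fusion protein, at 0.08.

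The steroid receptors of the list are those for estrogen, Esr1 and Esr2, and progesterone, Pgr. Pgr had -0.25, -0.14 and -0.04 on the butyrate-morphine arrays and 0.03, -0.20 and -0.03 on the morphine arrays, with saline between -0.07 and 0.07 and a median of 0. Its groups overlapped and the mean of both was -0.11 (adjusted p = 0.391). Esr1 averaged 0.01 in butyrate-morphine mice and 0.08 in morphine mice, and Esr2 averaged -0.04 in butyrate-morphine mice and -0.03 in morphine mice; neither passed. Of 7 listed genes of estrogen synthesis and response 5 were measured and limma called 0 over both groups. At an unadjusted p under 0.05 there were 2 of 5, against 13.9% of all genes. The lowest p-values were those of the membrane estrogen receptor Gper1 at 0.16 and the hydroxysteroid dehydrogenase Hsd17b12 at 0.09.

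Among the receptors for lipids, Pparg, the adipocyte regulator, lay at 0.12, 0.17 and 0.10 on the butyrate-morphine arrays and at 0.12, 0.03 and 0.02 on the morphine arrays, with saline between -0.04 and 0.04 and a median of 0. All butyrate-morphine arrays were above the saline range, and 2 of 3 morphine arrays lay inside it. No share of all genes is given for this separation. The difference was 0.13 in butyrate-morphine (adjusted p = 0.227) and 0.09 over both groups (adjusted p = 0.237). Ppara, which drives fatty acid oxidation, averaged 0.05 in butyrate-morphine mice and 0.09 in morphine mice. Ppard, its widely expressed relative, averaged -0.03 in butyrate-morphine mice and -0.09 in morphine mice. Nr1h3, the oxysterol receptor LXR alpha, averaged -0.05 in butyrate-morphine mice and -0.01 in morphine mice, and Vdr, the vitamin D receptor, averaged -0.01 in both.

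Known targets of these receptors were set beside them. Of 18 listed PPAR targets 15 were measured and 2 passed as higher in each comparison with saline. The shares of all genes called were 0.843% in butyrate-morphine, 0.757% in morphine and 1.81% over both groups. At an unadjusted p under 0.05 in limma there were 3 in each, against 12.1%, 11.3% and 13.9% of all genes. Pdk4, the kinase that turns down pyruvate dehydrogenase, lay between 0.78 and 1.04 on the butyrate-morphine arrays and between 0.73 and 0.85 on the morphine arrays, against -0.13 to 0.13 on saline arrays. Its mean difference was 0.85, or 1.81-fold (adjusted p = 2.15e-05). Txnip, the thioredoxin-interacting protein, was 0.54 higher, or 1.45-fold (adjusted p = 0.00241). Pdk4 passed in each of the 9 fits with an array or saline pair left out, in every comparison with saline, and Txnip did so over both groups. The calls of Txnip in single groups depended on single arrays, passing in 4 of 9 fits in butyrate-morphine (lost without any of its arrays and without saline arrays 1 and 2 or 5 and 6) and in 7 of 9 in morphine (lost without morphine array 2 or 3). The remaining 13 did not pass, and the median of the list was 0.05. Pdk4 and Txnip are also known as genes induced by glucocorticoids. Of 11 LXR targets and 6 measured genes of the vitamin D system limma called 0 over both groups. At an unadjusted p under 0.05 there were 3 and 0, against 13.9% of all genes. The lowest p-values had Abcg4 at 0.10 and Abca1 at 0.12, both sterol transporters, and Trpv6, a calcium channel, at -0.12 and Cyp27a1, a sterol hydroxylase, at 0.11.

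The orphan receptors Nr5a2, known from liver and pancreas, and Nr6a1, known from germ cells, averaged -0.04 and -0.01 in butyrate-morphine mice and 0.04 and -0.04 in morphine mice. The p160 coactivators Ncoa1, Ncoa2 and Ncoa3 carry the histone acetyltransferase recruitment of ligand-bound receptors. Ncoa2 had -0.03, -0.18 and -0.04 on the butyrate-morphine arrays and -0.03, -0.05 and -0.07 on the morphine arrays, with saline between -0.03 and 0.03 and a median of 0. All 6 arrays were below the lowest saline array, by little, and the mean of both groups was -0.07 (adjusted p = 0.444). Ncoa1 averaged -0.02 in butyrate-morphine mice and -0.10 in morphine mice, and Ncoa3 averaged 0.02 in butyrate-morphine mice and 0.04 in morphine mice. Groups did not overlap, with both morphine groups lower, for 3 of 30 genes, Rarb, Rxrg and Ncoa2; the background is 1.34% of all genes.

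Of 21 other coregulators 20 were measured, among them Crebbp and Ep300, and limma called 0 in each comparison. At an unadjusted p under 0.05 there were 3 in butyrate-morphine, 0 in morphine and 3 over both groups. The shares of all genes were 12.1%, 11.3% and 13.9%. The lowest p-values over the mean of both groups were those of Ncoa4 at 0.10 and of Hdac3, a deacetylase of the corepressor complex, at 0.09 (adjusted p = 0.307 and 0.31). Of 21 other nuclear receptors 18 were measured. Against the same shares of all genes, 5 had an unadjusted p under 0.05 in butyrate-morphine, 4 in morphine and 6 over both groups. Nr4a1 and Nr4a3, immediate-early orphan receptors that activity induces within an hour, passed as higher over the mean of both groups, at 1.08 (2.12-fold, adjusted p = 0.00502) and 0.45 (1.37-fold, adjusted p = 0.00933). Both passed in each of the 9 fits with an array or saline pair left out. In butyrate-morphine alone both passed too (adjusted p = 0.01 and 0.0144), though not without butyrate-morphine array 2, and in morphine alone neither did (adjusted p = 0.068 and 0.125). The third gene of that family, Nr4a2, named after its values were seen, was at -0.35 over both groups and did not pass (adjusted p = 0.199). Nr1d1, the clock repressor REV-ERB alpha, passed in butyrate-morphine against saline, at 0.41 ± 0.04 in butyrate-morphine mice and -0.01 ± 0.13 in morphine mice (SD, n = 3 each; adjusted p = 0.0337). That call was lost without any of the butyrate-morphine arrays and without saline arrays 1 and 2 or 5 and 6. The difference between these 2 groups was 0.42 with an adjusted p of 0.873.

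The second question was whether butyrate-morphine mice differed from morphine mice. No group received butyrate without morphine. An effect of butyrate itself and a changed response to morphine therefore cannot be told apart. Limma called 0 of 30 members between butyrate-morphine and morphine, against a background of 0% of all genes. At an unadjusted p under 0.05 there was 1 of 30, 3.33%, against 5.18% of all genes, so the members were not above the background. That gene was Nr2f2, at -0.31 with a 95% interval from -0.60 to -0.03 in limma (adjusted p = 0.946).

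The members with the lowest p-values over both morphine groups, Nr2e1, Rarb and Rxrg, did not pass between the groups. Nr2e1 also stands out by its call in morphine, which rests on arrays compared here, so these differences are given as values and no direction is read from them. The difference was 0.14 for Nr2e1 with a 95% interval from -0.01 to 0.30 (adjusted p = 0.948). For Rarb it was 0.09 with an interval from -0.05 to 0.22 (adjusted p = 0.981), and for Rxrg 0.12 with an interval from -0.10 to 0.35 (adjusted p = 0.988). Rxrg had every butyrate-morphine array above every morphine array, which 7.75% of all genes also showed. Nr2f2 had every butyrate-morphine array below every morphine array, by little (0.179 against 0.182 at the nearest). For that direction the share of all genes is not given. For 26 of 30 members the difference between the groups was within 0.1 of 0, and the intervals reached a median of 0.16 to either side, so differences below that size were not resolved.

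**Figure D4:**
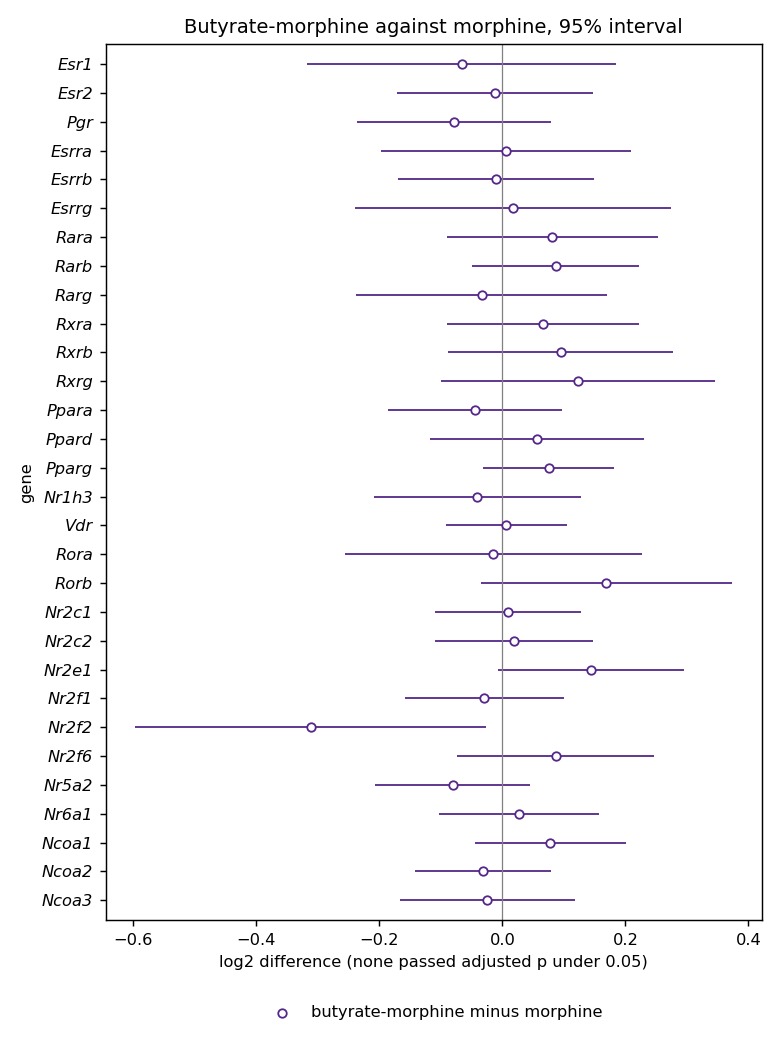
Log2 difference of butyrate-morphine from morphine (horizontal axis) of each measured gene with its 95% interval from the limma fit. The interval of Nr2f2 lies below 0, all others cross 0, and no gene passed an adjusted p of 0.05.

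Because Rarb and Rxrg are markers of striatal projection neurons, they were set beside a list of such markers. The mean of 12 markers lay between -0.07 and -0.01 on the butyrate-morphine arrays and between -0.20 and -0.13 on the morphine arrays, against -0.04 to 0.04 on saline arrays. Of them 1 of 12 passed as lower over the mean of both groups, Bcl11b, the transcription factor CTIP2, at -0.21 (adjusted p = 0.0187). That call was lost without butyrate-morphine array 2 and without any of the saline pairs. In limma Bcl11b also passed in morphine alone (adjusted p = 0.0161), but not without morphine array 3 or saline arrays 1 and 2. Over both groups 11 of 12 were below 0 and 7 had an unadjusted p under 0.05, against 13.9% of all genes. In morphine alone 12 were below 0 and 11 had such a p, against 11.3%. In butyrate-morphine alone 9 were below 0 and 2 had such a p, against 12.1%. In whole tissue fewer cells of a type and less RNA per cell cannot be told apart. Taken as the difference from the marker mean of the same array, Rarb was between -0.17 and -0.11 in butyrate-morphine mice and between -0.16 and -0.02 in morphine mice, against -0.05 to 0.05 in saline mice. Likewise Rxrg was between -0.24 and -0.19 in butyrate-morphine mice and between -0.27 and -0.17 in morphine mice, against -0.15 to 0.15 in saline mice. Between the morphine groups 12 of 12 markers were higher in butyrate-morphine, with a median of 0.12. Of them 6 had an unadjusted p under 0.05 in limma, against 5.18% of all genes, and 0 passed. The part of the projection neurons' share of the tissue in the values of Rarb and Rxrg was not tested.

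Nr2e1 is expressed by astrocytes and stem cells of the ventricular wall. The mean of 9 astrocyte markers lay between 0.06 and 0.14 on the butyrate-morphine arrays and between 0.07 and 0.12 on the morphine arrays, against -0.04 to 0.04 on saline arrays. Its genes were not alike, with 7 above and 2 below 0 over both groups, from Gjb6, a gap junction protein, at 0.36 to S100b, a calcium-binding protein, at -0.12, and 1 of 9 called (Gjb6). Cortical markers were uneven, with the mean of 8 at -0.13, 0.07 and -0.01 on the butyrate-morphine arrays, at 0.10, -0.58 and -0.26 on the morphine arrays and between -0.05 and 0.05 on saline arrays. Choroid plexus markers were higher by 0.77 to 1.03 in butyrate-morphine mice and by 1.07 to 1.28 in morphine mice, and 10 of 11 passed over the mean of both groups. Endothelial markers were called lower for 4 of 10 and higher for 1 of 10, and microglial markers lower for 2 of 9. Of all genes 1.81% were called over both groups. There 9 of 10 endothelial and 9 of 9 microglial markers were below 0. In each of these 2 lists 6 had an unadjusted p under 0.05 in limma, against 13.9% of all genes. Of the other lists, 1 of 9 astrocyte and 1 of 9 meningeal and fibroblast markers were called higher, and 0 of 8 cortical, 0 of 8 oligodendrocyte and 0 of 9 interneuron markers were called by limma, with 1 in each of the last 3 lists at an unadjusted p under 0.05. The part of these tissues and cells in the values of the members was not tested.

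**Figure D5:**
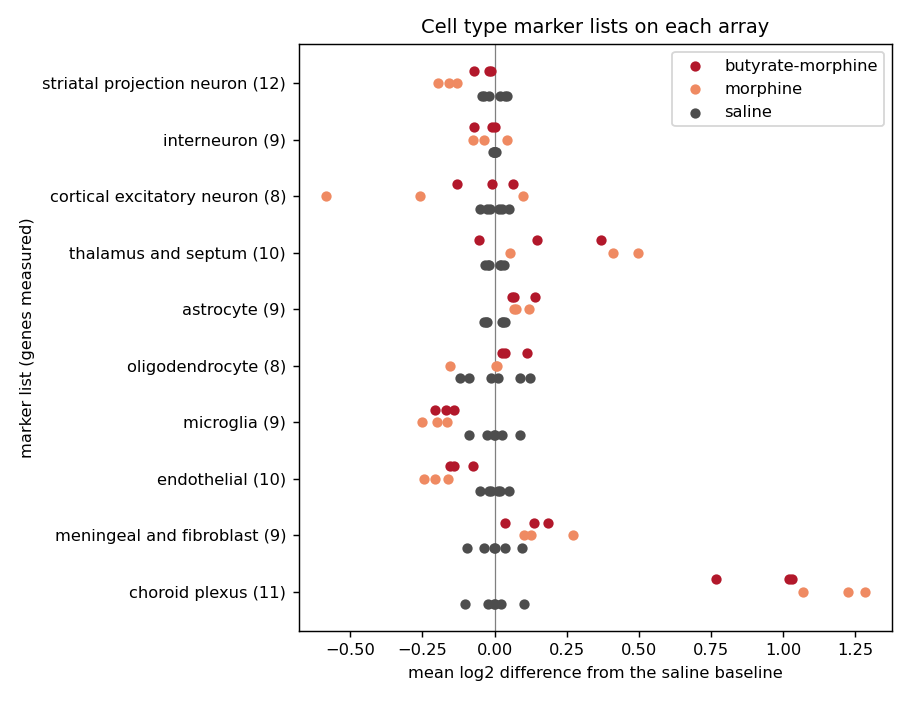
Mean log2 difference from the saline baseline (horizontal axis) over each list of cell type markers (rows, with the number of genes measured), 1 point per array. Choroid plexus markers lie above saline on all 6 arrays of the morphine groups, striatal projection neuron markers lie below saline on the 3 morphine arrays, and cortical, thalamic and septal markers differ between arrays of a group.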

How the data were processed

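Per the labels' protocols, total RNA of pooled striata was hybridised to Affymetrix arrays, 12 in all. The authors deposited 1 table of 28815 rows, treated as log2 differences; its log base, background correction, normalization and the saline arrays behind each baseline are not given in the labels. Names came from the platform annotation, where 21780 rows had 1 symbol, 1605 had several and 5430 had none. Probe sets of a gene were averaged.

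The comparisons used limma 3.58.1 (R 4.3.3) on 19935 genes and all 12 arrays, with 3 group means, 7 residual and 4.45 prior degrees of freedom, and Benjamini-Hochberg adjustment over all genes at 0.05. The count of degrees of freedom is exact with a common baseline and conservative where each morphine array has its own saline pair. Intervals are 95% intervals from this fit. No pairing of replicate numbers was used, since deviations of butyrate-morphine and morphine arrays with the same number correlated at -0.12, -0.27 and -0.20. Between different numbers the correlations ran from -0.13 to 0.28. The highest were 0.28 for butyrate-morphine 3 with morphine 2, 0.24 for 2 with 1, and 0.14 for 1 with 3. Whether such arrays share a baseline or a batch was not tested. Promoters are RefSeq windows of GRCm38.p6.

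Named in full were members past the threshold and those with the lowest p over both morphine groups, up to 12; other members are given as means. From each pathway list up to 6 genes past the threshold were named, or else the 2 with the lowest p. The members and the lists were chosen with earlier results of these data known. Alternatives were other residual degrees of freedom, blocks, centring, array weights, probe sets, thresholds and arrays left out. The number of arrays limits the precision.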

Additional observations from a re-analysis of the deposited data

How the results depend on the processing

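The call of Nr2e1 in morphine, and those of Nr2e1 and Rarb over both groups, depended on the processing, though their differences and that of Rxrg kept their sign in every alternative run. With the replicate number as a block, or with eBayes trend and robust, 0 members were called in any comparison. With 9 residual degrees of freedom 3 members were called in morphine and over both groups, Rxrg being added, and with only probe sets stored at 8 or more, which leaves out Nr2e1, 2 members were called (Rarb and Rxrg). With only the groups compared 0 members were called in morphine. An adjusted p under 0.1 gave 3 in morphine, and an unadjusted p under 0.05 gave 6 in butyrate-morphine, 5 in morphine, 1 between the morphine groups and 7 over both. Leaving out an array or a saline pair gave 0 to 3 members in morphine and 0 to 3 over both. Over both groups the adjusted p of Nr2e1 then ran from 0.0146 to 0.0998, passing in 4 of 9 fits, and that of Rarb from 0.0135 to 0.0923, passing in 2 of 9; leaving out morphine array 1 or 2 kept both, and leaving out butyrate-morphine array 1, 2 or 3, morphine array 3 or any saline pair lost Rarb. Rxrg passed in 0 of 9, at 0.0599 to 0.138. The cause was not tested.

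Over all genes, calls in butyrate-morphine, morphine and both (168, 151 and 361) became 495, 531 and 916 with 9 degrees of freedom, 51, 54 and 83 with the replicate block, 67, 62 and 132 with trend and robust, and 37, 72 and 130 of 5088 genes with only probe sets stored at 8 or more, where fewer genes were tested. Array weights gave 260 in butyrate-morphine and 543 over both. Leaving out an array gave 74 to 195, 79 to 336, 0 to 2 (between the morphine groups) and 141 to 482. The share of calls that were higher in morphine, 65.6%, became 51.4% with 9 degrees of freedom.

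Reversed differences were all of genes that did not pass. In butyrate-morphine against saline Nr2f2 became 0.0022 with array weights and ran from -0.10 to 0.072 with an array left out. In morphine against saline Pgr ran from -0.11 to 0.00056. Between the morphine groups Esrra became -0.0049 with median centring, Rarg 0.0081 and Rora 0.013 with array weights. With an array left out, Esrra ran from -0.079 to 0.086, Rarg from -0.11 to 0.082, Rora from -0.15 to 0.11, Ncoa2 from -0.059 to 0.018 and Esrrg from -0.065 to 0.072.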
